A study of Drosophila melanogaster with 24 samples.

Results

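The genes described here encode subunits of the mitochondrial respiratory chain and of the ATP synthase in Drosophila melanogaster. They were chosen by symbol alone, as every gene whose name in the array annotation begins with ND-, UQCR-, COX and a digit, or ATPsyn. Of the 11982 genes with a probe set of their own, 66 met this rule: 32 of complex I, 6 of complex III, 14 of complex IV and 14 of the ATP synthase (complex V). A gene with several such probe sets was represented by the one with the highest mean signal.

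Complex I takes electrons from NADH and passes them to ubiquinone, complex III passes them on to cytochrome c, and complex IV hands them to oxygen. The ATP synthase uses the proton gradient that results to make ATP. Each complex joins a few catalytic subunits to many small accessory ones, and all genes measured here are nuclear, so their products must be imported into the mitochondrion. RefSeq (assembly Release 6 plus ISO1 MT) places them on all large chromosome arms, with 10 on X, 12 on 2R, 13 on 3R, 15 each on 2L and 3L, and 1 on chromosome 4.

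The study mixed populations of S2 cells, a hemocyte-like fly line, for 45 minutes, and the RNA of both populations was measured together on 1-colour Affymetrix arrays. Control mixes held only S2 cells (S2/S2). In the others at least 1 partner was a line expressing a protein: Delta, a ligand of the receptor Notch (Dl), Delta without its intracellular domain (DlDI), or the proteins named NFull and NDCterm, read here as forms of Notch, which the labels do not spell out. S2 cells met 1 such line in the mixes S2/S2-NDCterm, S2-NFull/S2, S2/S2-Dl and S2/S2-DlDI. A ligand line met a receptor line in S2-NFull/S2-DlDI, S2-NFull/S2-Dl and S2-NDCterm/S2-Dl. The promoters, the number of clones and the proportions of the 2 populations are not given in the sources used here. Because every mix was measured as a whole, a standing difference between cell lines and a response to contact cannot be told apart, nor can fewer cells of a kind and less RNA per cell.

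The fit rested on 15 samples: 3 of S2/S2-Dl and 3 of S2/S2, 1 of each NFull mix, and 2 of each other mix. Each sample pooled 2 independent ones. The NFull mixes had no spread of their own and borrowed that of the others, and no source says that replicates were separate cultures, so p-values measure only the spread between these samples. Delta read 11070 to 12968 in the 6 Dl samples and at most 41.3 in the other 9, the DlDI samples included, so its probe set may lie in the part that DlDI lacks and may check nothing there. A mean signal of 100 in S2/S2 was reached by 8 of 12 markers of plasmatocytes (hemocytes) but by none of 7 epidermal ones. The source field nevertheless names late embryonic epidermis, and every array title opens with late embryonic epidermal tissue before it names the mix. Of the 8 plasmatocyte markers, He passed only through S2/S2 replicate 1, at 548 against 60.6 and 62.0 in replicates 2 and 3. The array median signal was 10.3 to 20.9, highest in S2/S2 replicate 2, and the ratio of 3′ to 5′ Gapdh control signal, a sign of RNA integrity, was 1.46 to 2.82 in Dl samples and 1.87 to 3.13 in the others.

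The subunit genes fell into a bright and a dim class. A mean signal of 100 or more over the samples, on the deposited scale, was seen for 45 of the 66 genes: 25 of complex I, 3 of complex III, 7 of complex IV and 10 of complex V. Their means ran from 383 to 8410, while the median over all tested probe sets was 10.2. The other 21 genes included all 18 whose symbol marks them as a copy of a subunit gene by a final L or L and a digit (COX7AL, ND-51L2 and so on). They were ND-20L, ND-24L, ND-51L1, ND-51L2 and ND-B14.5AL in complex I, UQCR-11L and UQCR-14L in complex III, COX4L, COX5BL, COX6AL, COX6AL2, COX6CL, COX7AL and COX7AL2 in complex IV, and ATPsynbetaL, ATPsynCF6L, ATPsynepsilonL and ATPsynGL in complex V. In this fly such copies of nuclear genes for mitochondrial proteins are often expressed mainly in the testis, and none of 11 testis and germline markers reached 100 in S2/S2 either. Of these 18 copies, 17 stayed under 100 in every sample, and the exception was COX4L. The other dim genes were ND-B8, ND-B12 and UQCR-11, with mean signals of 3.45, 55.7 and 73.3. Signals of different probe sets have no common scale, so no order among subunits is drawn from these levels.

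By median, the bright genes varied over the samples somewhat less than all genes of that brightness. The SD of the log2 value, taken after adding 32 to the signal, had a median of 0.18 over the 45 genes and of 0.22 over the 4600 genes of the array with a mean signal of 100 or more. Over the 25 bright genes of complex I the median was 0.21. In complex I the SD was highest for ND-B22 (0.33), an accessory subunit of the membrane arm, and lowest for ND-MLRQ (0.11), the fly counterpart of human NDUFA4, which has since been assigned to complex IV. ND-MLRQ ran only from 7282 to 9399 over the 15 samples. UQCR-Q (0.26) and UQCR-6.4 (0.13) were the most and least variable in complex III, and COX8 (0.18) and COX5A (0.11) in complex IV. In complex V these places fell to ATPsynbeta, the catalytic subunit, and ATPsynC, which forms the membrane ring. ATPsynC stayed between 3302 and 4196, and ATPsynbeta ran from 2934 in S2-NFull/S2-DlDI to 6689 in S2/S2-NDCterm replicate 3.

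**Figure D1:**
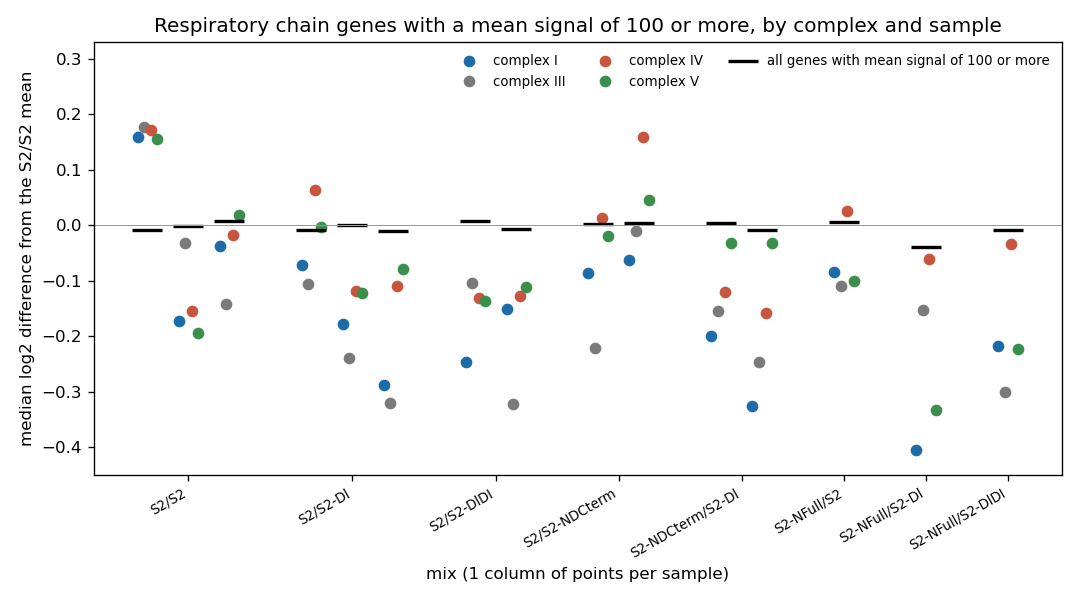
Median log2 difference from the S2/S2 mean over the bright genes of each complex (points) and over all genes with a mean signal of 100 or more (black dashes), 1 column per sample, grouped by mix on the x axis. Complex I lies below 0 in every sample but S2/S2 replicate 1 and is lowest, at -0.40, in S2-NFull/S2-Dl.

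Set against the S2/S2 mean, the median over the 25 bright complex I genes was below 0 in all 12 samples of the other mixes, and lowest in S2-NFull/S2-Dl. It was -0.072, -0.18 and -0.29 (log2) in the 3 S2/S2-Dl samples, -0.20 and -0.33 where the Delta line met NDCterm cells, and -0.40 where it met NFull cells. It was -0.25 and -0.15 with DlDI and S2 cells, -0.22 in S2-NFull/S2-DlDI, and between -0.087 and -0.063 in the 3 samples with a receptor line and S2 cells. The S2/S2 samples themselves spread widely, at 0.16, -0.17 and -0.037, and 7 of the 12 medians lay below the lowest of them. Replicate 1 was high for all 4 complexes, by 0.16 to 0.18. Over all genes with a mean signal of 100 or more the median stayed between -0.038 and 0.0079 in every sample. The mix with the highest mean was S2/S2 for 17 of the 45 bright genes (37.8%) and for 19.3% of all genes of that brightness.

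Adding the Delta line to S2 cells was the best replicated comparison. With limma (adjusted p under 0.05 over all 18769 probe sets) none of the 66 genes was called in S2/S2-Dl against S2/S2, where 1.31% of all probe sets were. At an unadjusted p under 0.05, 11 genes were lower and none was higher, beside 6.95% lower and 5.21% higher among all probe sets. Of the 45 bright genes 9 were lower and none higher, beside 10.1% and 11.7% of all genes of that brightness. The difference was negative for 51 of 66 genes, beside 61% of all genes, with a median of -0.10 against -0.047 over all genes, and for 26 of 32 genes of complex I, with a median of -0.18. The medians of complexes III, IV and V were -0.14, -0.046 and -0.071. Over the bright genes the median was -0.16, and -0.014 over all genes of that brightness. Against the S2/S2 mean, the bright median was -0.057, -0.16 and -0.20 in S2/S2-Dl replicates 1, 2 and 3. It was 0.16, -0.17 and -0.037 in the same-numbered S2/S2 samples, so replicate 2 was no lower with Dl. The 95% confidence interval of 38 of the 45 bright genes lay within a 1.5-fold change in either direction.

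The replicate numbers of these mixes paired their samples, and with that number as a block 3 complex I genes were called lower (limma, 0.916% of all probe sets called lower): ND-42 (adjusted p = 0.0307), ND-B14.5A (0.0387) and ND-PDSW (0.0411). Without the block their adjusted p-values were 0.173, 0.116 and 0.085. The 3 largest positive differences among bright genes were small and not called: 0.14 for COX7A, 0.12 for ATPsynCF6, which encodes coupling factor 6 of the ATP synthase stalk, and 0.10 for ND-51, the catalytic subunit that binds NADH. ND-51 turned to -0.074 without S2/S2 replicate 2.

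Delta also met the lines with NDCterm and NFull. With NDCterm cells, S2-NDCterm/S2-Dl was set against S2/S2-NDCterm, and none of the 66 genes was called (0.49% of all probe sets). At an unadjusted p under 0.05, 8 were lower and none higher, beside 3.26% and 4.37% of all probe sets. Of the bright genes 7 were lower and none higher, beside 7.37% and 7.7% of all genes of that brightness. The median over bright genes was -0.19 against -0.0051 over all genes of that brightness. With the replicate block ND-42 (adjusted p = 0.0442) and ND-B14.5A (0.0346) were called lower (0.48% of all probe sets), but these mixes share only 2 numbers. Their same-numbered samples had a residual correlation of only 0.129, so replicate number hardly paired them. ND-B16.6, the fly counterpart of human NDUFA13, had the largest difference here, -0.62 (adjusted p = 0.33), from 787 and 657 without the Delta line to 558 and 372 with it. The largest positive ones were 0.17 for ND-19, 0.11 for ATPsynCF6 and 0.10 for ATPsyndelta. The medians of complexes I, III, IV and V were -0.17, -0.03, -0.17 and -0.085. With NFull cells, at 1 sample each for S2-NFull/S2-Dl (replicate 2) and its partner S2-NFull/S2 (replicate 3), none was called (0.293%), and 6 were lower and 2 higher at an unadjusted p under 0.05 (3.36% and 6.16% of all probe sets). The 6 lower ones were bright and the 2 higher ones dim, beside 8.37% and 6.98% of bright genes of the array lower and higher. The median over bright genes was -0.22 against -0.047, and -0.084 with the replicate block.

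The difference of a Dl mix from its partner was then compared between partner lines. None of the 66 genes was called in the test of the NDCterm difference against the S2 difference (0.0107% of all probe sets), where 1 was lower and none higher at an unadjusted p under 0.05 (1.09% and 2.37% of all probe sets, and 1.5% and 1.04% of genes of 100 or more). None was called for the NFull difference either (0.0213%), where 1 was lower and 2 were higher (1.1% and 4.11%, and 1.54% and 0.717% of genes of 100 or more).

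These 3 comparisons share no sample, though all use the Delta line, so their differences could be averaged. This average was chosen after the differences of ND-42 had been seen, and its p-values are not independent of that choice. Of the 45 bright genes, 28 (62.2%) were lower in all 3 comparisons and 3 were higher in all 3. Among all probe sets 18.8% were lower and 18.2% higher in all 3, and among those of that brightness 31.4% and 28.2%. In 7 genes every Dl sample lay below every sample of its partner in each comparison: ND-15, ND-18, ND-42, ND-B14.5A, ND-B18, ND-PDSW and COX8. That is 15.6% of the bright genes, beside 6.25% of the probe sets of that brightness and 2.49% of all.

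In the mean of the 3 differences 6 bright genes fell and none rose, 5 of them accessory subunits of complex I (limma, adjusted p under 0.05; 4.69% of all probe sets were called in either direction). Among probe sets with a mean signal of 100 or more 5.82% were called lower and 6.93% higher, and among all probe sets 1.87% were called lower. A 7th gene, the dim COX7AL, was called higher (2.82% of all probe sets). With the replicate block 9 genes were called lower and none higher, beside 2.55% and 3.08% of all probe sets. The median over complex I was -0.15, and -0.0047 over all genes.

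ND-42, the counterpart of human NDUFA10 in the membrane arm of complex I, had the largest mean difference of the bright genes. Its signals were 1344, 1095 and 1346 in S2/S2 and 974, 842 and 1071 in S2/S2-Dl. The 2 samples of S2/S2-NDCterm read 1195 and 1091, those of S2-NDCterm/S2-Dl 837 and 785. The single samples read 1163 in S2-NFull/S2 and 606 in S2-NFull/S2-Dl. Among the samples of the fit, all 6 Dl ones lay below every sample without Dl except one: S2-NFull/S2-DlDI, at 997, lay under the highest S2/S2-Dl sample. The arrays titled S2-NFull/S2 replicate 1, which were left out of the fit, read 902 and 1141. The lower of these lay under S2/S2-Dl replicates 1 and 3. The log2 differences were -0.38, -0.48 and -0.90, with a mean of -0.59 (SE 0.091, 95% interval -0.78 to -0.39, adjusted p = 0.00219 with limma). With the replicate block the difference beside NFull was -0.67 and the mean -0.51 (limma, adjusted p = 0.00116).

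With truncated Delta ND-42 read 1131 and 1254 in S2/S2-DlDI, within the range of S2/S2, a difference from S2/S2 of -0.075 (95% interval -0.36 to 0.21). The direct difference of S2/S2-Dl from S2/S2-DlDI was -0.31 (95% interval -0.59 to -0.025), and that of S2-NFull/S2-Dl from S2-NFull/S2-DlDI was -0.69. Neither was called (limma, adjusted p = 0.526 and 0.365), so a difference between the 2 forms of Delta was not shown.

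COX8, a small nuclear subunit of complex IV, was also lowest in the Dl samples. Its signals were 3678, 3327 and 3433 in S2/S2, 2929, 2778 and 2737 in S2/S2-Dl, and 3424 and 3571 in S2/S2-DlDI. With NDCterm cells they were 3509.7 and 3965 without Dl and 2909 and 2955 with it. The single NFull samples read 3651 with S2, 2701 with Dl and 3503 with DlDI. All 6 Dl samples lay below all 9 others. The mean of the 3 differences was -0.36 (SE 0.075, adjusted p = 0.0142 with limma), and S2/S2-DlDI differed from S2/S2 by 0.0085 (95% interval -0.22 to 0.24), a value whose sign turned under quantile normalization.

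**Figure D2:**
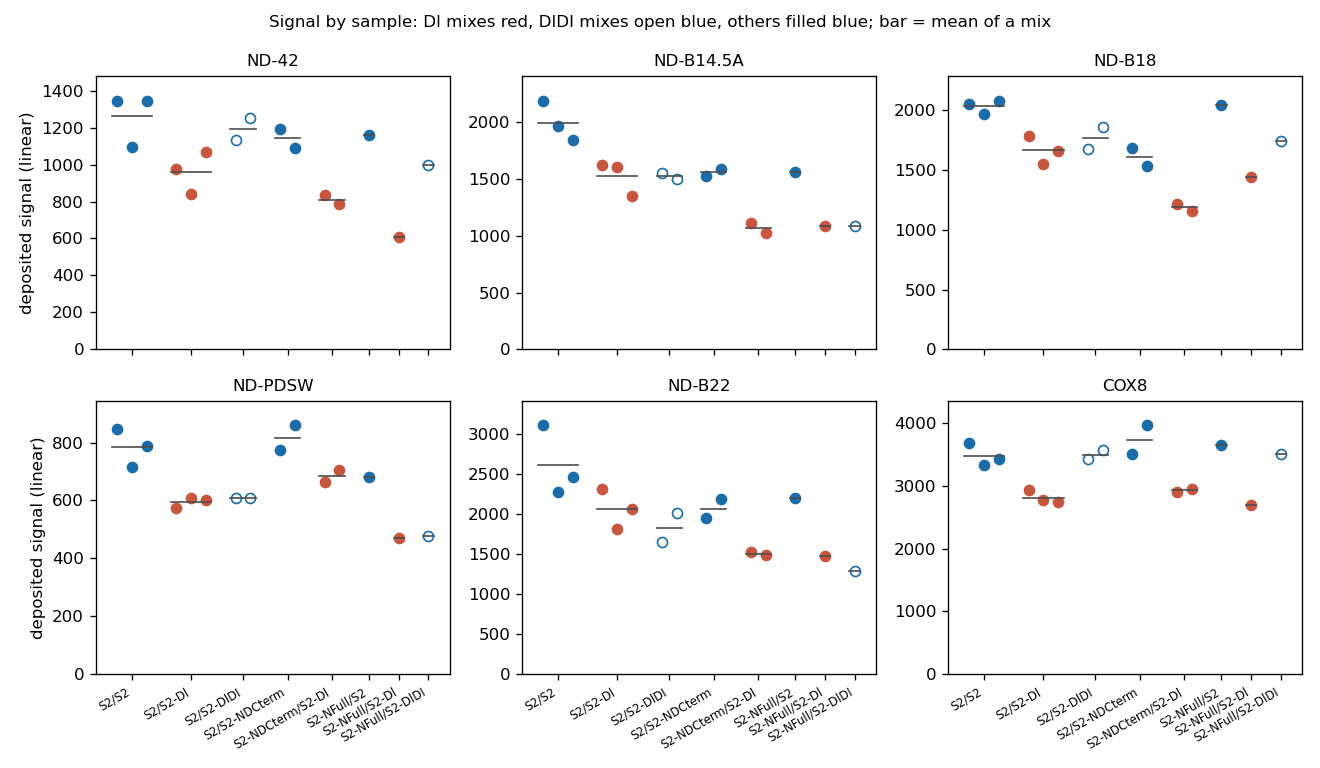
Deposited signal (linear, y axis from 0) of the 6 bright genes called lower in the mean of the 3 Dl differences, 1 point per sample, grouped by mix on the x axis, with a bar at the mean of each mix. For ND-42 and COX8 the open DlDI points of S2/S2-DlDI lie with the S2/S2 samples, while for ND-B14.5A and ND-PDSW they lie with the Dl samples.

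ND-B14.5A and ND-PDSW had lower signals than S2/S2 with either form of Delta, though the DlDI difference was not called for either. ND-B14.5A, a counterpart of human NDUFA7, read 2189.6, 1964 and 1841 in S2/S2 and was lower in every sample of every other mix. It read 1627, 1605 and 1352 in S2/S2-Dl and 1557 and 1502 in S2/S2-DlDI. With NDCterm cells it read 1531 and 1588 without Dl and 1115 and 1025 with it. S2-NFull/S2 read 1561, against 1085 with Dl and 1082 with DlDI. The mean of the 3 Dl differences was -0.47 (SE 0.082, adjusted p = 0.00455 with limma). S2/S2-DlDI differed by -0.38 from S2/S2 (adjusted p = 0.512), the same samples that S2/S2-Dl is compared with. The direct difference of S2/S2-Dl from S2/S2-DlDI was -0.0058 with a 95% interval of -0.26 to 0.25.

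ND-PDSW, the counterpart of human NDUFB10 in the membrane arm, read 847, 716 and 788 in S2/S2, 575, 607 and 603 in S2/S2-Dl and 609 and 609 in S2/S2-DlDI. With NDCterm cells it read 774 and 859 without Dl and 663 and 704 with it. The single NFull samples read 680.5, 472 with Dl and 478 with DlDI. S2/S2-NDCterm thus stood with S2/S2, unlike for ND-B14.5A. The mean of the 3 Dl differences was -0.37 (SE 0.075, adjusted p = 0.0115 with limma). S2/S2-DlDI differed from S2/S2 by -0.35, which was not called (adjusted p = 0.512), and S2/S2-Dl differed from S2/S2-DlDI by -0.031 (95% interval -0.26 to 0.20).

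ND-B18 and ND-B22, counterparts of human NDUFB7 and NDUFB9, also fell in the mean of the 3 differences. ND-B18 read 2051, 1973 and 2080.1 in S2/S2 and 1789, 1548 and 1661 in S2/S2-Dl. With NDCterm cells it read 1682 and 1538 without Dl and 1217 and 1161 with it, so neither pair of mixes overlapped. It read 1676 and 1864 in S2/S2-DlDI, also below every S2/S2 sample. Its mean difference was -0.40 (SE 0.075, adjusted p = 0.00713 with limma). ND-B22 read 3105, 2271 and 2463 in S2/S2, and S2/S2-Dl overlapped with it at 2312, 1812 and 2067. It read 1653 and 2006 in S2/S2-DlDI and 1949 and 2184 in S2/S2-NDCterm, all below every S2/S2 sample. Its mean difference was -0.45 (SE 0.10, adjusted p = 0.0269), and its lowest sample was not a Dl one but S2-NFull/S2-DlDI, at 1289. The call of ND-B22 was lost without any 1 of S2/S2-Dl replicate 2 and the 4 samples with NDCterm, and that of COX8 without any 1 of S2/S2-NDCterm replicate 3 and both S2-NDCterm/S2-Dl samples, with adjusted p up to 0.0852 and 0.0531, while ND-42, ND-B14.5A, ND-B18 and ND-PDSW were called under all 24 alternatives.

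**Figure D3:**
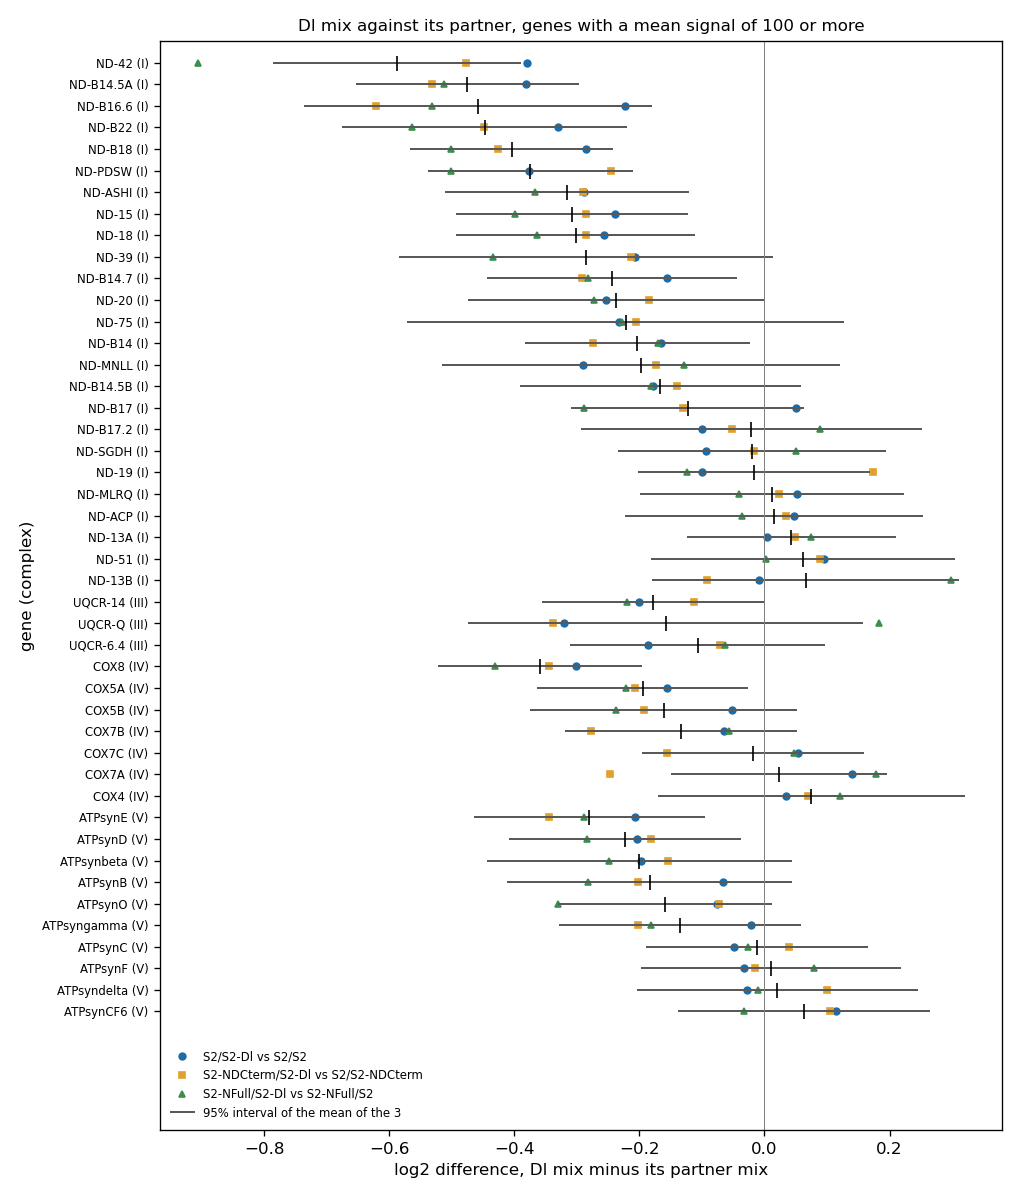
Log2 difference of a Dl mix from its partner (x axis) for each of the 45 bright genes (y axis, by complex), with 1 symbol per comparison and a line for the 95% interval of the mean of the 3, whose value is the short upright bar. The ND-42 symbols lie at -0.38, -0.48 and -0.90, while the intervals of ND-51, COX4 and ATPsynCF6 cover 0.

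Other bright genes of complex I were lower in all 3 Dl comparisons without a call. The mean difference was -0.46 for ND-B16.6 (adjusted p = 0.0631), -0.32 for ND-ASHI (0.0675), -0.31 for ND-15 (0.0607) and -0.30 for ND-18 (0.0737). Their human counterparts are NDUFA13, NDUFB8, NDUFS5 and NDUFS4. The mean difference was 0.062 for ND-51 (95% interval -0.18 to 0.30) and -0.22 for ND-75, which carries iron-sulphur clusters (-0.57 to 0.13). None of the bright UQCR- and ATPsyn genes was called. The largest in complex V was -0.28 for ATPsynE (adjusted p = 0.0885), and that of ATPsynbeta was -0.20 with an interval of -0.44 to 0.043. Of the 45 bright genes 10 had a mean difference above 0, the highest being 0.075 for COX4 (95% interval -0.17 to 0.32).

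Some measures of RNA and cell state moved beside these genes. The Gapdh 3′ to 5′ ratio was below 2 in 5 of the 6 Dl samples and in 1 of the other 9, S2/S2-NDCterm replicate 3. The sixth, S2/S2-Dl replicate 3, had 2.82, within the 2.71 to 2.97 of S2/S2, and the lowest complex I median of the 3 S2/S2-Dl samples. The same ratio of the Actin control did not separate the Dl samples, at 1.80 to 2.75 with Dl and 1.87 to 3.26 in the others. Of the 12 plasmatocyte markers 3 were called higher in the mean of the 3 differences (limma), beside 2.82% of all probe sets. The share was 6.93% among those with a mean signal of 100 or more. NimC4 and crq, which encode receptors for apoptotic cells, rose by 1.02 and 0.45 (limma, adjusted p = 0.00605 and 0.029). Col4a1, a collagen, rose by 0.58 (limma, adjusted p = 0.0342). The mean difference was above 0 for 7 of the 12, with a median of 0.057, and none was called lower. Pxn was lower with Dl beside NDCterm cells, at 1052 and 1311 against 1875 and 1671, and beside NFull, at 578 against 1004. So was eater, at 103 and 62.5 against 199 and 135, and at 90.0 against 112. In S2/S2-Dl both overlapped with S2/S2. The summed signal of the 12 was 3448 to 4717 in S2/S2 and 4803 to 4877 in S2/S2-Dl, 5270 to 5836 in S2/S2-NDCterm and 5059 to 5276 once Dl was present, and 4183 and 4354 without and with Dl beside NFull. Hml and Sr-CI, at 8.79 and 1.74 in S2/S2, were near 0. The part of RNA integrity and of cell state in the lower signals was not tested.

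Truncated Delta and the receptor lines alone gave no calls. In S2/S2-DlDI against S2/S2 none of the 66 genes was called (0.0746% of all probe sets), 9 were lower and none higher at an unadjusted p under 0.05 (4.51% and 3.28% of all probe sets). Of the 9, 7 were bright, beside 5.59% and 7.59% of all genes of that brightness lower and higher. In all, 58 of 66 were negative, beside 62.5% of all genes. The median over bright genes was -0.17 against -0.0011 over all genes of that brightness, and the medians of complexes I, III, IV and V were -0.20, -0.15, -0.11 and -0.11. S2/S2-DlDI had no replicate 1, the number at which S2/S2 was high (0.16 over bright genes). Against the S2/S2 mean, replicates 2 and 3 of S2/S2-DlDI had bright medians of -0.17 and -0.13. The same-numbered S2/S2 samples had -0.17 and -0.037, so replicate 2 was no lower with DlDI. The lowest bright gene was ND-B22 (-0.50, adjusted p = 0.476) and the highest ND-75 (0.12), which turned to -0.027 without S2/S2 replicate 2. Beside NFull, DlDI gave no call against S2-NFull/S2 either (0.0213%), with 6 lower and none higher at an unadjusted p under 0.05 (1.75% each of all probe sets). These 6 were bright, beside 2.96% and 2.33% of all genes of that brightness.

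Full-length against truncated Delta was tested directly in S2/S2-Dl against S2/S2-DlDI. None of the 66 genes was called (0.639% of all probe sets), and at an unadjusted p under 0.05, 2 were lower and 4 higher (4.0% and 4.33% of all probe sets). Of the bright genes 2 were lower and 3 higher, beside 8.26% and 8.24% of all genes of that brightness. The lowest bright genes were ND-75 (-0.35), COX8 (-0.31, 95% interval -0.54 to -0.079) and ND-42. The highest were ND-51 (0.34), ATPsynO (0.29), which joins the stalk to the catalytic head, and ATPsynCF6 (0.29). The interval lay within a 1.5-fold change for 41 of the 45 bright genes. Between the NFull mixes with Dl and DlDI none was called (0.213%), with 2 lower and 2 higher at an unadjusted p under 0.05 (2.47% and 4.75%, and 5.65% and 5.2% of genes of 100 or more).

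For S2/S2-NDCterm against S2/S2 none of the 66 was called (0.165%), with 7 lower and 2 higher at an unadjusted p under 0.05 (5.57% and 3.9%). Of the bright genes 4 were lower and 1 higher, beside 8.93% and 8.91% of all genes of that brightness, and the median over bright genes was -0.038 (-0.083 with the replicate block). The median over all 66 genes, -0.037, turned to 0.031 without S2/S2 replicate 1. ATPsynbeta was the highest, at 5282 and 6689 against 4893, 4021 and 4911 in S2/S2, a difference of 0.37 (95% interval 0.024 to 0.72, adjusted p = 0.495 with limma). Its other bright probe set gave 0.12 (95% interval -0.21 to 0.46). ATPsyndelta (0.25), of the central stalk, and COX7B (0.16) followed. In S2-NFull/S2 against S2/S2 none was called (0.181%), with 3 lower and none higher at an unadjusted p under 0.05 (3.21% and 3.63%, and 4.28% and 6.67% of genes of 100 or more).

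A single test over all 8 mixes (limma F test) called 5 of the 66 genes: ND-B14.5A (adjusted p = 0.00768), ND-B18 (0.0209), ND-PDSW (0.0232), ND-42 (0.0255) and ND-B22 (0.041). All 5 belong to complex I. The 5 make up 7.58% of the genes described and 11.1% of the bright ones, beside 3.39% of all probe sets and 9.08% of those with a mean signal of 100 or more, so the share among bright genes was near the background. At an unadjusted p under 0.05, 20 of the 66 passed, beside 14.2% of all probe sets, and 16 of the 45 bright ones, beside 33.1% of genes of that brightness. Without S2-NDCterm/S2-Dl replicate 3 the count was 0, and it was 1 without either S2/S2-NDCterm replicate 3 or S2-NDCterm/S2-Dl replicate 1. It was 2 without any 1 of the S2/S2-DlDI samples or S2/S2-NDCterm replicate 1, and 3 without S2/S2-Dl replicate 2.

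Among the dim copies, COX4L and COX7AL stood out in opposite ways. COX4L read 158, 199 and 74.6 in S2/S2 and 64.6, 89.3 and 50.1 in S2/S2-Dl. It read 90.8 and 40.0 in S2/S2-DlDI. With NDCterm cells it read 33.9 and 51.4 without Dl and 27.7 and 24.5 with it. The NFull samples read 36.6, 17.6 with Dl and 22.7 with DlDI. The S2/S2 mix was thus the highest, although its lowest sample overlapped with S2/S2-Dl and S2/S2-DlDI. The difference of S2/S2-NDCterm from S2/S2 was -1.18 (SE 0.32, adjusted p = 0.233 with limma), and it ran from -0.65 with a larger offset to -1.51 with a smaller one. Among the alternatives it was called only without S2/S2 replicate 3 (-1.5, adjusted p = 0.0481). Its mean Dl difference was -0.53 (adjusted p = 0.255, and 0.0215 with the replicate block). COX4L and COX4 are measured by separate probe sets, and COX4 was not called in any comparison.

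**Figure D4:**
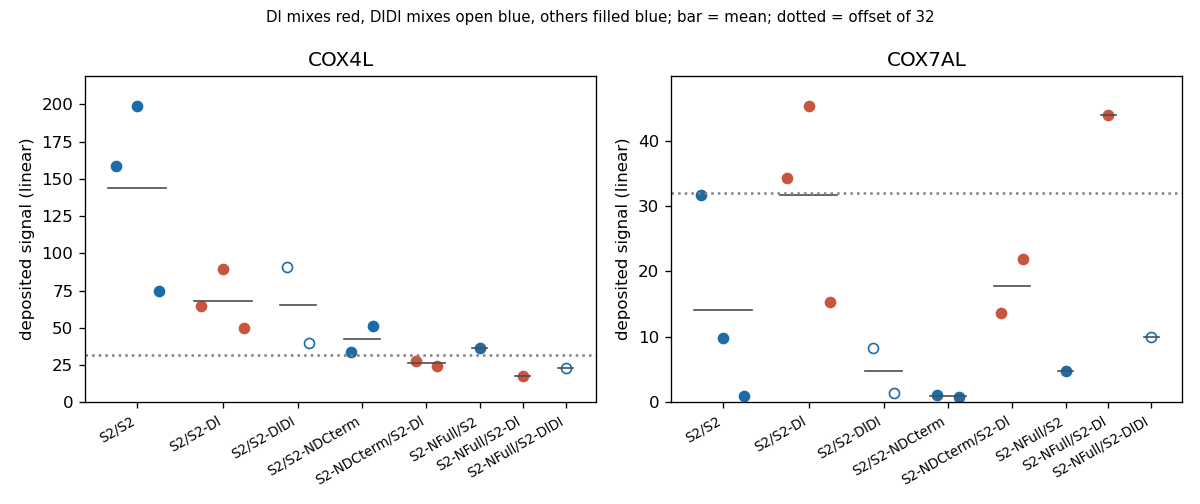
Deposited signal (linear, y axis from 0) of COX4L and COX7AL by sample and mix, with a bar at the mean of each mix and a dotted line at 32, the value added before taking logs. COX4L is highest in S2/S2, at 74.6 to 199, and COX7AL reaches 45.4 in an S2/S2-Dl sample.

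COX7AL read 34.2, 45.4 and 15.4 in S2/S2-Dl and 31.7, 9.77 and 0.994 in S2/S2. With NDCterm cells it read 13.6 and 21.9 with Dl and 1.06 and 0.781 without it, and with NFull cells 43.9 and 4.82. The DlDI samples read 8.23 and 1.42 with S2 cells and 9.94 with NFull cells. Each Dl mix had the higher mean, but S2/S2 replicate 1 lay within the range of S2/S2-Dl, the other 2 below it. Its mean Dl difference was 0.71 (SE 0.18, adjusted p = 0.0442 with limma), and it ran from 0.24 with a larger offset to 1.52 with a smaller one. Most of these signals lie under the offset of 32, and the call held in 6 of 23 alternatives: it was lost, among others, with a larger offset and without most single samples. A second, dim probe set of COX7C behaved likewise, with means of 16.2 in S2/S2-Dl and 2.71 in S2/S2 and a mean Dl difference of 0.45 (adjusted p = 0.00831), while the bright COX7C probe set differed by -0.019 (95% interval -0.19 to 0.16).

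Other genes of mitochondrial energy metabolism were followed as a list of 33 measured genes, from complex II and cytochrome c1 to carriers, mitochondrial transcription and the tricarboxylic acid cycle. None was called in any of the 9 comparisons of mixes or in either test of a difference between partner lines (limma). Among all probe sets 0.0107% to 1.31% were called there. At an unadjusted p under 0.05, 2 of the 33 were lower and 1 higher in S2/S2-Dl against S2/S2, beside 6.95% and 5.21% of all probe sets. In the mean of the 3 Dl differences 1 fell and 1 rose. Among probe sets with a mean signal of 100 or more 5.82% were called lower and 6.93% higher, so the 2 calls do not exceed the background. RFeSP, the Rieske iron-sulphur protein of complex III, differed by -0.33 (SE 0.082, adjusted p = 0.035 with limma). Its signals were 1705, 1399 and 1638 in S2/S2 and 1384, 1262 and 1303 in S2/S2-Dl, without overlap.

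ScsbetaA, a subunit of succinyl-CoA synthetase in the tricarboxylic acid cycle, differed by 0.52 (SE 0.087, adjusted p = 0.00372 with limma). It read 675, 653 and 729 in S2/S2 and 1039.7, 949 and 793 in S2/S2-Dl. With NDCterm cells it read 1020.0 and 1133 with Dl and 786 and 795 without it, and with NFull cells 1319 and 787. Every Dl sample lay above every sample of its partner. It was also the only gene of this list called over the 8 mixes (adjusted p = 0.0417, limma F test). The median over the list in the mean of the 3 differences was -0.13 over 33 genes. That is close to the complex I median given above, while the median over all genes given there was much smaller in size. Of the 33 genes 31 reached a mean signal of 100 in S2/S2, so all genes are not a background of like brightness. By part of the list, the medians ran from -0.22 for complex III and cytochrome c to 0.055 for mitochondrial transcription and its regulators. A lower median was thus not confined to complex I, but not every part of the list had one.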

How the data were processed

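The authors deposited 1 linear signal intensity per probe set for each of 24 arrays, per the file headers, and the sources used here do not name the software. After trimming 2% at each end the mean lay between 150.004 and 150.005 on each array, so no further scaling was done. Signals were turned into log2(signal + 32). Of 18952 probe sets, 183 were controls and were left out, and the other 18769 were all tested, dim ones included. Of these, 13647 named 1 gene, 402 named several and 4720 named none. The 66 genes had 74 single-gene probe sets, all 66 matched RefSeq, and 4 shared probe sets (naming COX6B, COX6AL2, ATPsynG and ND-AGGG) were not used.

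Where 2 arrays bore 1 title, they were averaged only if the SD of their log2 difference was below that of every pair of separate replicates of a mix (0.213 to 0.488) and Delta differed no more than in those. The SD was 0.126 for S2-NFull/S2-DlDI replicate 2, which was averaged, and 0.340 to 0.384 for the other 4 titles, whose 8 arrays were left out. For S2-NFull/S2 replicate 1 (0.340) averaging was an alternative. limma 3.58.1 in R 4.3.3 fitted the 8 mixes of 15 samples in 1 model with a mean trend (7 residual and 6.26 prior degrees of freedom), and p-values were adjusted (Benjamini-Hochberg) within each comparison. The fit was tested on simulated data. The number of arrays limits the precision. Same-numbered samples of S2/S2 and S2/S2-Dl had residual correlations of 0.666, 0.420 and 0.524, so replicate number was taken as pairing these mixes.

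Genes and lists were chosen with earlier results of these data known. Genes named are those called, the 3 highest and 3 lowest of each replicated comparison among genes at 100 or more in either mix, the most and least variable bright gene of each complex, the copies ending in L or L and a digit, and called genes of the lists. ND-MNLL ends in L but is a subunit, and was not counted as a copy after its symbol was seen. Also named outside this rule were the dim genes ND-B8, ND-B12 and UQCR-11, COX7C with its second probe set, and the plasmatocyte markers He, Pxn, eater, Hml and Sr-CI. Other genes outside it (ND-ASHI, ND-15, ND-18, COX4 and ATPsynE) were named after their values were seen, for the size of their difference or their separation. The mean of the 3 Dl differences was likewise chosen after values were seen. Alternatives were quantile normalization, other offsets, a filter on low values, no trend, other uses of shared titles, a replicate block, only the mixes compared, other probe set rules and leaving out each sample. Sequences and promoters were not analysed here.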

Additional observations from a re-analysis of the deposited data

How the results depend on the processing

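Apart from the counts and values given next, the counts of called genes stayed within 1.5 times under the alternatives run, and the medians moved by less than the 0.123 SD of the median over samples, which is about as large as the medians themselves. The median of S2/S2-DlDI against S2/S2, -0.15, was -0.059 without S2/S2 replicate 1, that of S2-NDCterm/S2-Dl against its partner, -0.14, was -0.076 with a larger offset, and that of S2/S2-NDCterm against S2/S2, -0.037, ran from -0.096 to 0.031 when single samples were left out. The cause of each change was not tested. Genes called in S2/S2-Dl against S2/S2 numbered 1 with the filter on low values and 3 with the replicate block. Between S2-NDCterm/S2-Dl and its partner they numbered 2 with the replicate block and 1 with only the mixes compared, in S2-NFull/S2-DlDI against S2-NFull/S2 1 with array 1 of each shared title, and in S2/S2-NDCterm against S2/S2 0 to 1 when single samples were left out. The replicate block changed no other count of a pairwise comparison from 0. The count over the 8 mixes was 11 with the filter, 15 with every shared title averaged, 14 and 12 with array 1 or 2 of each, 9 with the replicate block, and 0 to 6 when single samples were left out. The count for the mean of the 3 Dl differences was 11 with the filter and 4 to 11 when single samples were left out: 11 without S2/S2 replicate 1, and 4 without S2/S2-NDCterm replicate 3 or S2-NDCterm/S2-Dl replicate 3.

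The median difference of S2-NFull/S2-Dl from S2-NFull/S2, -0.049 over all 66 genes, was -0.20 with the filter and -0.22 over the bright genes, an alternative chosen after seeing the data. The sign of small differences from S2/S2 turned: in S2/S2-DlDI, COX8 to -0.0063 and ND-B16.6 to -0.013 under quantile normalization, and when single samples were left out COX8 ran from -0.0229 to 0.0487, ND-B16.6 from -0.0976 to 0.169, and ND-75 from -0.027 to 0.390. ND-51 in S2/S2-Dl ran from -0.074 to 0.245. Comparisons between mixes of 1 sample could not be fitted with only the mixes compared, and with all arrays of shared titles left out the test over 8 mixes and the comparisons with S2-NFull/S2-DlDI had no value. Signals under 32 lie in the offset, which limits 17 of the 66 genes by their mean.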

Other observations

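The 8 arrays of shared titles that entered no comparison also held these genes. Their Delta signals differed within a title: arrays titled S2-NFull/S2-DlDI read 12295 and 156.3 for replicate 1 and 11031 and 1.67 for replicate 3, and those titled S2-NDCterm/S2-Dl replicate 2 read 11382 and 13.9. The median log2 difference of the 45 bright genes from the S2/S2 mean was -0.48 and -0.30 on the arrays of S2-NFull/S2-DlDI replicate 1, -0.38 and -0.087 on those of replicate 3, -0.11 and -0.11 on those of S2-NDCterm/S2-Dl replicate 2, and -0.031 and -0.22 on those of S2-NFull/S2 replicate 1. No array was assigned to another mix.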
